A study of Mus musculus with 15 samples.

Results

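Transcripts of integrins and adhesion receptors were followed in mouse B cells that were naive, activated, or differentiated into plasmablasts, with and without an inhibitor of EZH2. The 37 genes were matched by symbol in an RNA-seq table of 21669 genes with a symbol, and comprise 18 integrin α chains, 8 integrin β chains, 4 adhesion receptors of the immunoglobulin superfamily, 3 other adhesion receptors, 2 cytoplasmic activators of integrins, and 2 tetraspanins. All libraries came from female C57BL/6J wild-type mice, and the experimental mice were 6 to 9 weeks old. Naive B cells (nB) were splenic cells left after magnetic depletion of CD43+ cells, received neither stimulus nor drug, and were not sorted by flow cytometry. Activated B cells (actB, sorted as B220+GL7+CD138-) and plasmablasts (Pb, sorted as CD138+) came from 3-day cultures of such cells with LPS, IL2, and IL5 and with either GSK343 or its vehicle DMSO. GSK343 blocks EZH2, the enzyme of Polycomb repressive complex that places the repressive histone mark H3K27me3. For Pb with GSK343 the labels name IL6 where the others name IL5, and if this holds, drug and cytokine cannot be told apart in Pb.

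Integrins are heterodimers of an α and a β chain that bind the extracellular matrix or counter-receptors on other cells, and they bind tightly only after talin (*Tln1*) and kindlin-3 (*Fermt3*) have engaged the tail of the β chain from within the cell. On B cells, LFA-1 (*Itgal* with *Itgb2*) binds ICAM proteins, α4β1 (*Itga4* with *Itgb1*) binds VCAM-1 and fibronectin, and α4β7 (*Itga4* with *Itgb7*) binds MAdCAM-1 and serves homing to the gut. LFA-1 and α4β1 hold marginal zone B cells in the spleen, and plasma cells use integrins, CD44, and selectin ligands when they settle in their niches. A transcript level does not show how much heterodimer reaches the surface.

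Between 19421830 and 26307413 reads were counted per library, so that a count of 0 allows up to 3 reads, or 0.114 to 0.154 RPM (reads per 1000000 reads counted). Levels are given as RPKM (RPM per kilobase of the deposited gene length). Orders and ratios of genes depend on that length. It differed from the exonic bases of the GENCODE annotation for some genes, such as *Itgal* (4313 against 6380) and *Selplg* (4566 against 2604). The nB libraries with replicate numbers 1 and 2 differed by less than the sampling noise and were counted as 1 sample, so that n was 2 for nB and 3 for each other group. B cell markers were present in all groups, and the summed level of 7 plasmablast markers was 3216 to 3569 RPKM in Pb against 512 to 707 RPKM in actB. In nB, 11 of the 13 myeloid markers in the table were at 1 RPKM or more, with a sum of 228 to 280 RPKM, led by *Lyz2* at 166 RPKM, and markers of T and NK cells summed to 36.1 to 41.7 RPKM. The myeloid sum was 0.500 to 2.06 RPKM in the cultured groups. Replicate 2 stood apart in every cultured group: its chi-square per degree of freedom against replicates 1 and 3 of its group was 16.7 to 29.7 in actB and 7.64 to 11.4 in Pb, against 3.80 and 6.07 and against 3.58 and 3.68 between the latter.

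Of the 37 genes, 26 had at least 1 RPKM in at least 3 columns as deposited and were tested. The other 11 were the α chain genes *Itga1*, *Itga2*, *Itga2b*, *Itga3*, *Itga7*, *Itga8*, *Itga9*, and *Itga11* and the β chain genes *Itgb4*, *Itgb6*, and *Itgb8*, none of which exceeded 1.39 RPKM in any library. *Itgad*, *Itgax*, and *Vcam1* passed only through the nB columns, and *Itga5* and *Itgae* only through the Pb columns, so that their differences between these and other stages were set by the filter. Counts and medians between stages are therefore given over the 21 other genes, beside the 10686 genes of the table that reached 1 RPKM in more than 1 stage. The most abundant chains in nB were *Itgb7* (87.5 ± 1.32 RPKM, SD, n = 2), *Itgb2* (79.3 ± 0.223 RPKM), *Itgal* (69.4 ± 2.36 RPKM), and *Itga4* (56.7 ± 7.71 RPKM), whose libraries did not overlap. In actB with DMSO the order was *Itgal* (124 ± 11.9 RPKM, n = 3), *Itgb1* (58.3 ± 3.13 RPKM), and *Itgb2* (51.9 ± 0.328 RPKM). In Pb with DMSO, *Itgal* (82.6 ± 5.07 RPKM) and *Itgb2* (77.0 ± 3.84 RPKM) overlapped, and *Itga4* (53.1 ± 5.58 RPKM) and *Itgb1* (26.5 ± 1.26 RPKM) followed. Among the genes that are not integrin chains, *Pecam1* (111 ± 1.11 RPKM) and *Fermt3* (104 ± 3.27 RPKM) were highest in nB, *Fermt3* (118 ± 10.2 RPKM) in actB with DMSO, and *Selplg* (92.5 ± 7.11 RPKM) in Pb with DMSO.

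**Figure D1:**
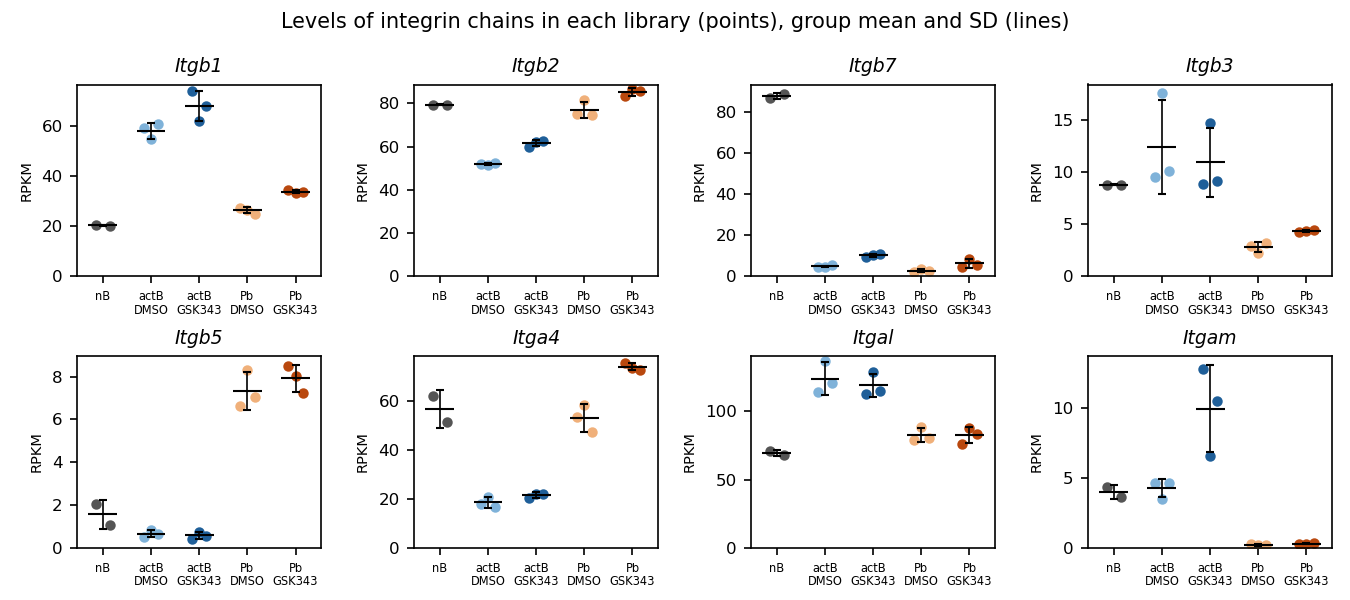
RPKM (vertical axes, linear) of 8 integrin chains in each library of nB, actB, and Pb, with DMSO or GSK343. Points are libraries, with nB replicates 1 and 2 merged, and lines are the mean and SD. *Itgb7* lies near 87.5 RPKM in nB and at most at 10.8 RPKM in the cultured groups, whereas *Itgb1* is highest in actB.

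To see how the adhesion genes differed after activation, actB with DMSO were compared with nB. Of the β chains that can pair with α4, *Itgb7* fell and *Itgb1* rose, and *Itga4* itself fell. *Itgal* rose while its partner *Itgb2* fell, and the homophilic receptor *Pecam1* and the ICAM family member *Icam2* fell. By limma at an adjusted p under 0.05, 6 of the 21 genes rose and 10 fell, where 41.7% of the 10686 genes rose and 34.9% fell. The median log2 fold change (on the scale of log2(RPKM + 0.25)) was -0.18 over the 21 genes and 0.073 over the 10686 genes. Cell types cannot be separated in bulk RNA: fewer cells of a type and less RNA per cell cannot be told apart.

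Among the β chains, *Itgb7* was at 88.4 and 86.5 RPKM in the nB libraries and at 4.49, 4.74, and 5.33 RPKM in actB with DMSO. These levels were far apart, with a log2 fold change of -4.11 (SE 0.23, limma adjusted p = 4.57e-09). *Itgb1*, the common β chain of the matrix receptors, was at 20.3 and 20.6 RPKM in nB and at 59.3, 54.8, and 60.8 RPKM in actB with DMSO. It thus rose in every library, with a log2 fold change of 1.50 (SE 0.071, adjusted p = 1.11e-09). Within a library, the ratio of *Itgb1* to *Itgb7* was 0.234 ± 0.00612 (SD, n = 2) in nB and 12.1 ± 1.01 (n = 3) in actB with DMSO. *Itgb2*, the β chain of the leukocyte integrins, fell from 79.3 RPKM to 51.9 RPKM (log2 fold change -0.61, adjusted p = 1.03e-07), and *Itgb5*, a partner of αV, fell from 1.56 to 0.661 RPKM. *Itgb3*, another partner of αV, was at 8.80 ± 0.0417 RPKM in nB and at 9.59, 17.7, and 10.1 RPKM in actB with DMSO, and did not pass the test (adjusted p = 0.134). Replicate 2 gave the high value.

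Among the α chains, *Itga4* was at 51.2 and 62.1 RPKM in nB and at 17.9, 20.9, and 16.9 RPKM in actB with DMSO (log2 fold change -1.60, SE 0.11, adjusted p = 2.91e-08). *Itgal* rose from 69.4 to 124 RPKM (log2 fold change 0.83, SE 0.088, adjusted p = 2.38e-06), and the groups did not overlap. *Itga6*, a laminin receptor chain, fell from 4.91 to 1.14 RPKM, and *Itga5*, the fibronectin receptor chain, fell from 0.681 to 0.151 RPKM. *Itgam*, the α chain of Mac-1, was at 3.67 and 4.38 RPKM in nB and at 4.66, 3.50, and 4.65 RPKM in actB with DMSO, which overlapped (adjusted p = 0.756). In nB, where myeloid markers summed to 228 to 280 RPKM, the part of other spleen cells in the level of *Itgam* was not tested. The small rise of *Itga10* (1.29 to 1.61 RPKM, adjusted p = 0.0457) was lost under 8 of the settings tried other than leaving out a library and when either replicate 1 or replicate 2 of actB with DMSO or either nB library was left out. *Itgav* (log2 fold change -0.18, adjusted p = 0.053) and *Itgae* (-0.28, adjusted p = 0.0717) did not pass, but were called lower after median scaling (adjusted p = 0.00874 and 0.0235) and with edgeR (TMM, adjusted p = 0.00724 and 0.0268).

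*Itgax*, *Itgad*, and *Vcam1*, which myeloid cells or macrophages also transcribe, fell steeply from nB. *Itgax* was at 21.3 and 24.4 RPKM in nB and at 0.0188 to 0.0464 RPKM in actB with DMSO, which is 2 to 5 reads. *Itgad* was at 1.85 and 5.39 RPKM in nB and at 0.0184 to 0.0375 RPKM in actB with DMSO. *Vcam1*, the counter-receptor of α4β1 on stromal cells and macrophages, was at 8.63 and 22.7 RPKM in nB and had 0 reads in all 12 cultured libraries. Against the floor of 3 reads per library, the lower of the nB libraries puts this at least 256-fold lower in actB with DMSO and at least 210.2-fold lower in Pb with DMSO, and the nB mean at least 464-fold and 381-fold. The myeloid marker *Lyz2* was likewise at 166 ± 20.1 RPKM in nB and 0.422 ± 0.159 RPKM in actB with DMSO. By group mean, the myeloid markers reached 1 RPKM in nB alone, so that the fall of all 11 tested was set by the filter. *Itga9*, which was not tested, was at 0.655 and 1.39 RPKM in nB. The part of other spleen cells in the nB levels of these genes was not tested.

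**Figure D2:**
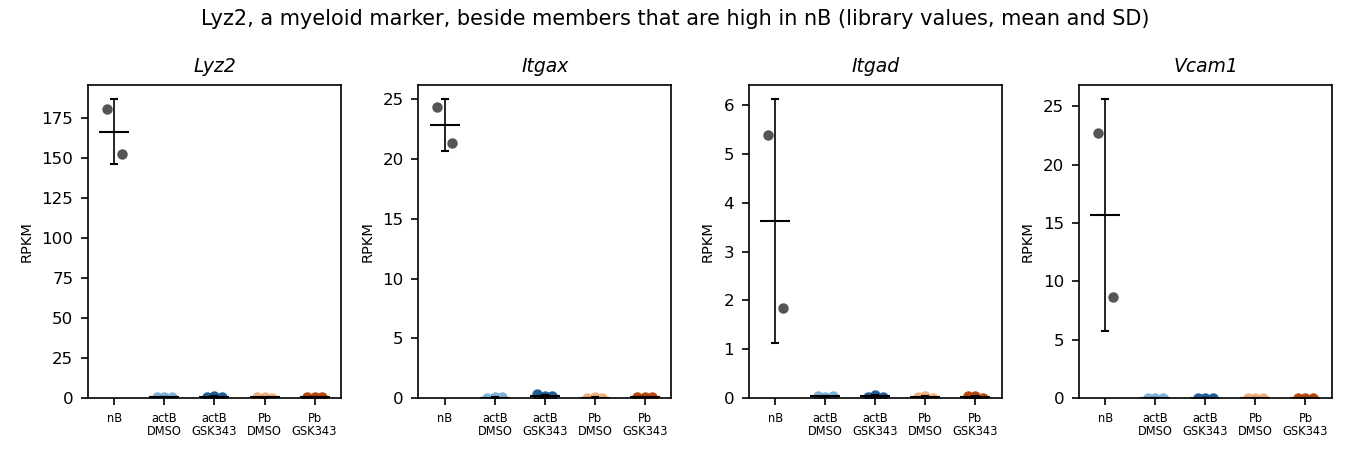
RPKM (vertical axes, linear) of the myeloid marker *Lyz2* and of *Itgax*, *Itgad*, and *Vcam1* in each library, with group mean and SD. All are high in nB alone, and the nB libraries differ in *Itgad* (1.85 and 5.39 RPKM) and *Vcam1* (8.63 and 22.7 RPKM).

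The other receptors divided. *Pecam1* was at 112 and 110.3 RPKM in nB and at 38.1, 45.9, and 39.5 RPKM in actB with DMSO (log2 fold change -1.43, SE 0.13, adjusted p = 4.26e-07). *Icam2* fell from 74.0 to 23.3 RPKM (log2 fold change -1.66, adjusted p = 2.79e-09). *Cd44*, the hyaluronan receptor, was at 22.2 and 24.2 RPKM in nB and at 40.1, 41.4, and 37.4 RPKM in actB with DMSO (log2 fold change 0.77, SE 0.091, adjusted p = 6.43e-06). *Cd44* was thus higher in all actB libraries. *Tln1* fell from 87.5 to 61.7 RPKM, and the tetraspanins *Cd9* and *Cd151*, membrane organizers that associate with integrins, fell from 19.8 to 14.5 RPKM and from 5.74 to 3.05 RPKM. *Icam1* (20.5 to 25.4 RPKM, adjusted p = 0.0192) and *Fermt3* (104 to 118 RPKM, adjusted p = 0.0332) passed the test, but not after median scaling (adjusted p = 0.0783 and 0.21) or without actB with DMSO replicate 2 (adjusted p = 0.0685 and 0.116). Without either nB library, adjusted p was 0.0526 and 0.104 for *Icam1* and 0.0571 and 0.165 for *Fermt3*, and without actB with DMSO replicate 3 it was 0.0602 for *Fermt3*. *Cd47*, the ligand of SIRPα, and *Selplg*, which encodes the P-selectin ligand PSGL-1, did not pass (adjusted p = 0.211 and 0.0608), although *Cd47* was called lower with edgeR and RLE factors (adjusted p = 0.0498) and *Selplg* higher without actB with DMSO replicate 3 (adjusted p = 0.0132).

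Next, Pb with DMSO were compared with actB with DMSO, which separates the cells of the same cultures by CD138. *Itgb5*, *Selplg*, *Cd9*, and *Itga4* were higher in Pb, and *Itgam*, *Itgb3*, *Pecam1*, and *Itgb1* were lower. By limma, 10 of the 21 genes were higher and 9 were lower, where 27.0% of the 10686 genes were higher and 43.6% were lower. The median log2 fold change was 0.018 over the 21 genes and -0.13 over the 10686 genes. Median scaling, which brought the median of all tested genes from -0.12 to -0.0048, removed no call and added *Tln1*.

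*Itgb5* was at 0.494, 0.825, and 0.663 RPKM in actB with DMSO and at 6.62, 8.32, and 7.04 RPKM in Pb with DMSO. This was the largest rise among the 26 genes by log2 fold change in this fit (3.07, SE 0.20, adjusted p = 3.57e-08). The related *Itgb3* went the other way, from 12.5 ± 4.53 RPKM to 2.95, 2.26, and 3.20 RPKM in Pb with DMSO (log2 fold change -2.01, SE 0.23, adjusted p = 5.32e-06), so that the ratio of *Itgb5* to *Itgb3* was 0.0546 ± 0.00980 in actB and 2.71 ± 0.840 in Pb (SD, n = 3 each). The αV chain *Itgav*, which can pair with either, rose from 5.48 to 7.09 RPKM (log2 fold change 0.36, adjusted p = 6.57e-04). *Itgb1* was at 27.5, 26.8, and 25.1 RPKM in Pb with DMSO (log2 fold change -1.13, SE 0.064, adjusted p = 9.34e-09), below all actB libraries. *Itgb7* fell from 4.85 to 2.80 RPKM (log2 fold change -0.77, adjusted p = 0.00446), and *Itgb2* rose to 77.0 RPKM (log2 fold change 0.56, adjusted p = 1.05e-07).

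Among the α chains, *Itga4* was at 53.6, 58.3, and 47.2 RPKM in Pb with DMSO, above all actB libraries (log2 fold change 1.50, SE 0.096, adjusted p = 2.74e-08). *Itgam* was at 0.258, 0.193, and 0.175 RPKM in Pb with DMSO (log2 fold change -3.29, SE 0.19, adjusted p = 1.40e-08), the largest fall among the 26 genes in this fit. *Itga5* was at 0.151 RPKM in actB and 0.899 RPKM in Pb with DMSO. *Itgae*, the αE chain that pairs with β7, was at 0.442 and 1.07 RPKM. Both passed the level filter through Pb columns alone, so that their higher levels in Pb were set by the filter. *Itga10* rose from 1.61 to 2.76 RPKM. *Itgal* fell from 124 to 82.6 RPKM (log2 fold change -0.58, adjusted p = 3.02e-05), and *Itga6* was at 1.14 and 1.13 RPKM (adjusted p = 0.909).

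*Selplg* was at 29.1, 32.3, and 25.5 RPKM in actB with DMSO and at 90.2, 100.5, and 86.9 RPKM in Pb with DMSO (log2 fold change 1.67, SE 0.094, adjusted p = 9.13e-09). *Cd9* was at 13.6, 16.3, and 13.6 RPKM in actB with DMSO and at 41.9, 50.6, and 44.6 RPKM in Pb with DMSO (log2 fold change 1.64, SE 0.080, adjusted p = 2.78e-09). Neither gene overlapped between the groups. *Cd44* rose to 68.9, 70.5, and 63.3 RPKM (log2 fold change 0.76, adjusted p = 3.26e-06), and *Icam2* and *Cd151* also rose, to 38.0 and 5.76 RPKM. *Pecam1* was at 10.5, 10.7, and 9.23 RPKM in Pb with DMSO (log2 fold change -1.99, SE 0.11, adjusted p = 1.08e-08), and *Fermt3* fell to 61.9 RPKM (log2 fold change -0.93, adjusted p = 4.95e-08). *Cd47* and *Icam1* fell to 57.1 and 19.6 RPKM, and *Tln1* was at 61.7 and 62.4 RPKM (adjusted p = 0.767; called higher after median scaling, 0.0428, with edgeR and RLE factors, 0.0413, and with edgeR and the replicate block, 0.0209).

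**Figure D3:**
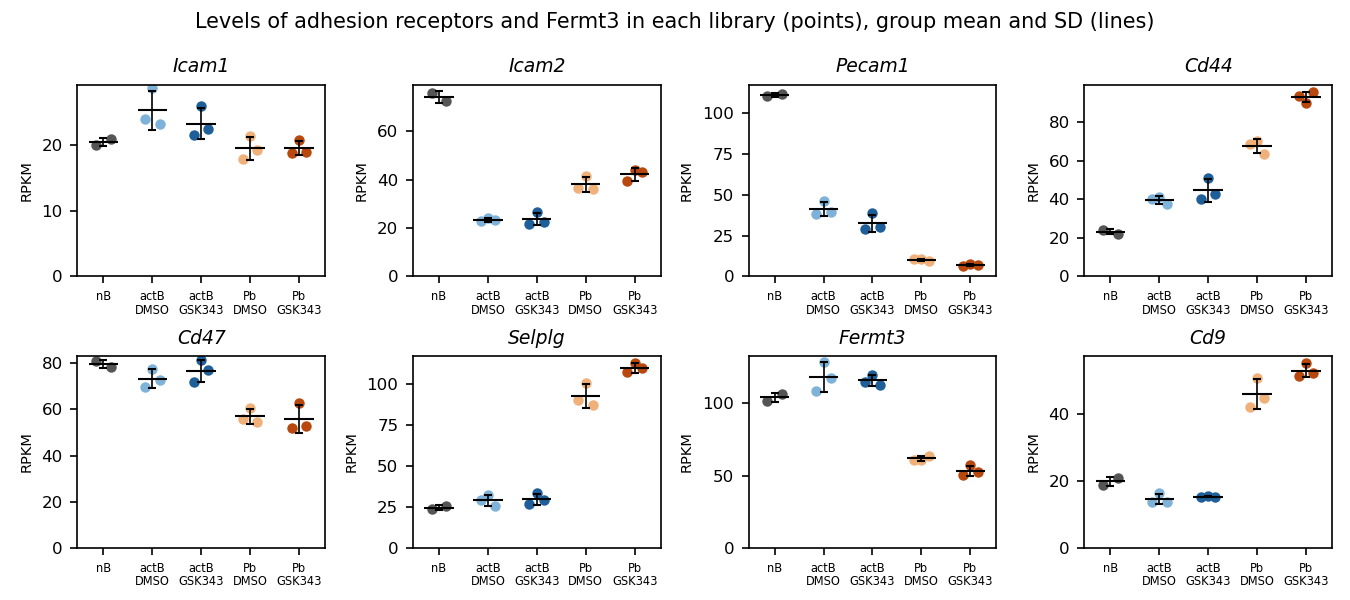
RPKM (vertical axes, linear) of 7 adhesion receptors and of *Fermt3* in each library, with group mean and SD. *Selplg*, *Cd9*, and *Cd44* are highest in the Pb groups, and *Pecam1* is highest in nB (111 RPKM) and lowest in Pb with GSK343 (7.01 RPKM).

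Set against nB, Pb with DMSO had 7 of the 21 genes higher and 9 lower by limma, where 39.9% of the 10686 genes were higher and 40.1% lower. The median log2 fold change was -0.067 over the 21 genes and -0.0072 over the 10686 genes. This comparison shares the Pb and the nB libraries with the others. The Pb levels of *Itga4* (56.7 RPKM in nB and 53.1 RPKM in Pb), *Itgb2* (79.3 and 77.0 RPKM), and *Cd151* (5.74 and 5.76 RPKM) did not pass the test, with 95% intervals of the log2 fold change from -0.33 to 0.14, from -0.15 to 0.06, and from -0.23 to 0.23. *Itgb7* had the largest fall after *Itgax* and *Vcam1* (log2 fold change -4.88, adjusted p = 4.74e-10), and *Pecam1* fell by 3.42 on the log2 scale (adjusted p = 6.07e-11). *Itgb5* (2.11), *Selplg* (1.90), *Cd44* (1.53), *Cd9* (1.19), and *Itga10* (0.96) had the largest log2 fold changes upward, and *Itgb1* was higher by 0.36 (adjusted p = 4.09e-04). *Itgal* was called higher (0.25, adjusted p = 0.0202), but not without nB replicate 1 merged with 2 (adjusted p = 0.117) or Pb with DMSO replicate 2 (adjusted p = 0.071).

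**Figure D4:**
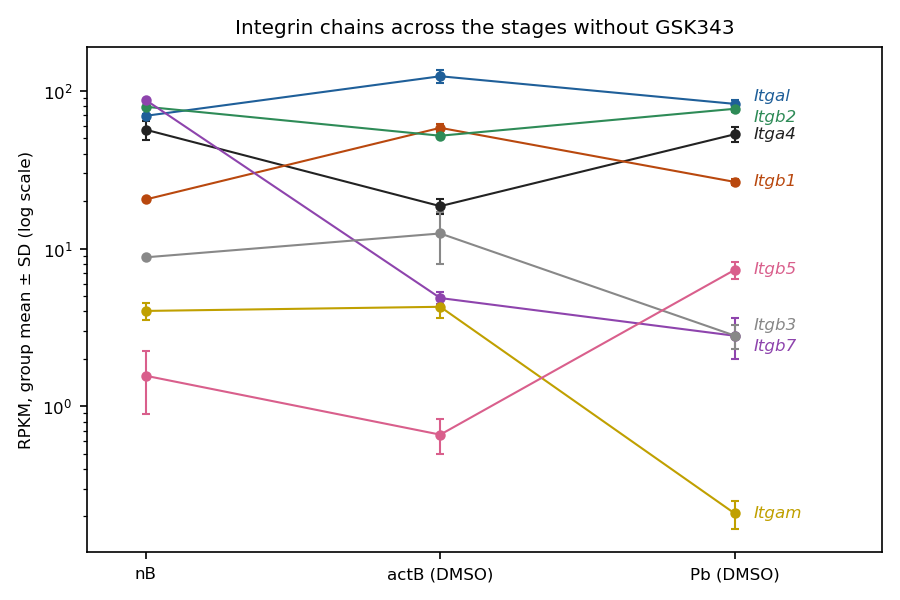
Mean RPKM (vertical axis, log scale) of 8 integrin chains in nB, actB with DMSO, and Pb with DMSO, with error bars of 1 SD (n = 2, 3, and 3 libraries). *Itgb1* and *Itgal* are highest in actB, *Itga4* and *Itgb2* are lowest in actB, and *Itgb5* is highest in Pb.

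To determine which adhesion genes changed when EZH2 was inhibited in activated B cells, actB with GSK343 were compared with actB with DMSO. *Itgam*, *Itgb7*, and *Itga5* had the largest log2 fold changes on the scale of log2(RPKM + 0.25), *Itgax* rose from near 0, and *Itgb2*, *Itga10*, and *Itgb1* rose by less. By the ratio of group means, which this scale understates for low genes, the order was *Itgax* (5.64-fold, from 2 to 5 reads per library), *Itga5* (3.83-fold), *Itgam* (2.33-fold), and *Itgb7* (2.11-fold). Limma called 7 of the 26 tested genes higher and 0 lower, where 8.2% of all tested genes were higher and 2.16% were lower. At an unadjusted p under 0.05 there were 13 genes, of which 1 was lower, and edgeR with TMM factors also called 0 lower. The median log2 fold change was 0.11 over the 26 genes and 0.028 over all genes. Blocking on the replicate number gave 10 higher and 1 lower. The calls added there were *Itga6* (adjusted p = 0.0451), *Itgae* (0.0211), and *Tln1* (0.0341), each higher, and *Pecam1* (0.00887), which was lower. With edgeR and the block, *Icam1* was also called lower (0.0134).

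*Itgam* was at 4.66, 3.50, and 4.65 RPKM with DMSO and at 12.8, 6.60, and 10.5 RPKM with GSK343. The groups did not overlap, replicate 2 was lowest in both, and the log2 fold change was 1.14 (SE 0.19, limma adjusted p = 0.00376). *Itgb7* was at 4.49, 4.74, and 5.33 RPKM with DMSO and at 9.60, 10.4, and 10.8 RPKM with GSK343 (log2 fold change 1.04, SE 0.20, adjusted p = 0.00731). *Itgb7* thus stood higher in all GSK343 libraries, but far under the 87.5 RPKM of nB. *Itga5* was at 0.103, 0.221, and 0.128 RPKM with DMSO and at 0.515, 0.801, and 0.415 RPKM with GSK343, which is 11 to 24 and 44 to 89 reads (log2 fold change 1.03, SE 0.20, adjusted p = 0.00696). *Itgax* was at 0.0188, 0.0464, and 0.0370 RPKM with DMSO and at 0.298, 0.154, and 0.124 RPKM with GSK343 (log2 fold change 0.62, SE 0.14, adjusted p = 0.0153), from 2 to 5 and 13 to 35 reads. The groups did not overlap for either gene, and *Itgax* was lost with a pseudocount of 1 (adjusted p = 0.0766) and without actB with DMSO replicate 1 (adjusted p = 0.061).

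*Itgb2*, the partner of both *Itgam* and *Itgax*, was at 52.0, 51.6, and 52.2 RPKM with DMSO and at 60.0, 62.3, and 62.8 RPKM with GSK343 (log2 fold change 0.25, SE 0.042, adjusted p = 0.00355). Its replicates lay close together and the groups did not overlap. *Itgal*, the more abundant partner of *Itgb2*, was at 124 ± 11.9 RPKM with DMSO and 119 ± 8.66 RPKM with GSK343 (log2 fold change -0.06, 95% interval -0.23 to 0.12). The ratio of *Itgal* to *Itgam* was accordingly 29.8 ± 8.05 with DMSO and 13.1 ± 5.65 with GSK343 (SD, n = 3 each). *Itgb1* (58.3 to 68.1 RPKM, log2 fold change 0.22, adjusted p = 0.0457) and *Itga10* (1.61 to 2.14 RPKM, log2 fold change 0.36, adjusted p = 0.0435) lost the call when any library but actB with GSK343 replicate 2 was left out (adjusted p 0.0683 to 0.156 and 0.0539 to 0.17) and with edgeR (TMM, adjusted p = 0.0812 and 0.0532). The ratio of *Itgb1* to *Itgb7* was 12.1 ± 1.01 with DMSO and 6.67 ± 0.917 with GSK343.

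Myeloid markers were examined in the same libraries. The 13 markers in the table summed to 0.599 to 0.963 RPKM with DMSO and 0.948 to 2.06 RPKM with GSK343. Of the 11 tested, 1 rose (*Adgre1*, 0.147 to 0.437 RPKM). With DMSO and GSK343, *Lyz2* was at 0.422 and 0.772 RPKM, *Csf1r* at 0.0189 and 0.0347 RPKM, and *Cd14* at 0.0461 and 0.0361 RPKM, and 5 and 4 of the markers were at 0. The plasmablast markers *Sdc1*, *Jchain*, and *Ell2* (3 of 7) also rose, and their list summed to 512 to 554 RPKM with DMSO and 586 to 707 RPKM with GSK343. Of other lists, *Fcer2a* (77.7 to 42.6 RPKM, 1 of 7 B cell markers) fell, *Cd1d1* and *Bhlhe41* (2 of 7 marginal zone or B-1 cell markers) rose, and *Ccr9* (0.320 to 0.964 RPKM, 1 of 6 dendritic cell markers) rose. The summed levels of these lists were 1927 to 2219, 275 to 299, and 39.2 to 65.5 RPKM with DMSO and 1852 to 2067, 278 to 285, and 20.7 to 42.1 RPKM with GSK343. Of the other dendritic cell markers, *Flt3* was at 47.2 RPKM with DMSO and 28.0 RPKM with GSK343. *Zbtb46* was at 0.230 and 0.298 RPKM, and *Xcr1* at 0.205 and 0.266 RPKM. *Siglech* and *Clec9a* were at 0.0208 and 0.0219 RPKM or less in both groups. The part of these markers in the changes of the adhesion genes was not tested.

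**Figure D5:**
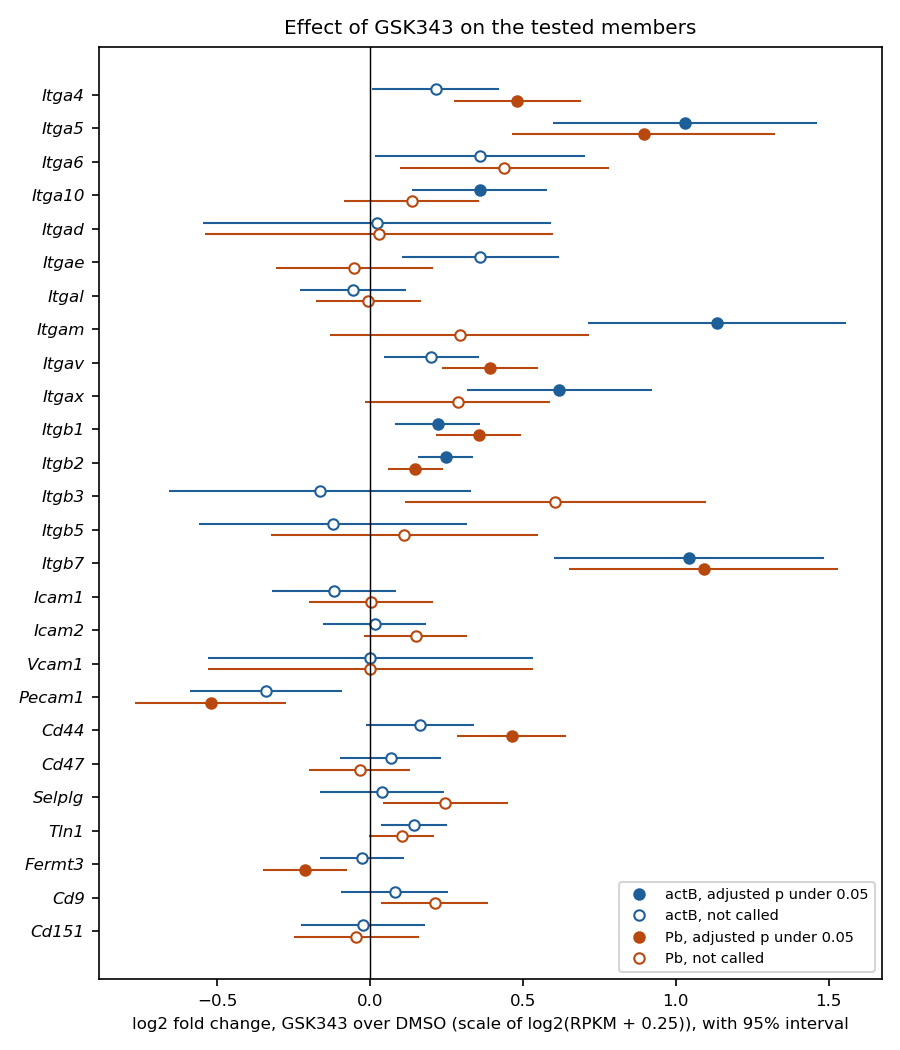
Log2 fold change of GSK343 over DMSO (horizontal axis, scale of log2(RPKM + 0.25)) for the 26 tested genes in actB (blue) and Pb (orange), with 95% intervals from the limma fit. Filled points have an adjusted p under 0.05; *Itgb7* and *Itga5* lie near 1 in both cell types, and *Itgam* lies at 1.14 in actB and 0.29 in Pb.

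The same comparison in plasmablasts asked whether GSK343 changed these genes in cells that had gained CD138. *Itgb7* and *Itga5* had the largest log2 fold changes, *Itga4*, *Cd44*, *Itgav*, and *Itgb1* rose by less, and *Pecam1* and *Fermt3* fell. Limma called 7 of the 26 tested genes higher and 2 lower, where 7.9% of all tested genes were higher and 5.0% were lower. The 7 include *Itga5*, whose rise was favoured by the level filter. The median log2 fold change was 0.15 over the 26 genes and 0.0031 over all genes. When the replicate number was blocked, *Itga6* (adjusted p = 0.0188), *Cd9* (0.0198), *Selplg* (0.0228), and *Icam2* (0.0448) were called higher as well.

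*Itgb7* was at 2.10, 3.68, and 2.62 RPKM with DMSO and at 4.72, 8.69, and 5.51 RPKM with GSK343 (log2 fold change 1.09, SE 0.20, limma adjusted p = 0.00511). The groups did not overlap, and replicate 2 was highest in both. *Itga4* was at 53.6, 58.3, and 47.2 RPKM with DMSO and at 75.4, 73.6, and 72.6 RPKM with GSK343 (log2 fold change 0.48, SE 0.096, adjusted p = 0.00719). *Itgb1* was at 27.5, 26.8, and 25.1 RPKM with DMSO and at 34.4, 33.4, and 33.8 RPKM with GSK343 (log2 fold change 0.35, SE 0.064, adjusted p = 0.00416). All chains of α4β1 and α4β7 thus rose in Pb, and the ratio of *Itga4* to *Itgb1* was 1.88 to 2.18 with DMSO and 2.15 to 2.20 with GSK343 in the 3 libraries of each.

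*Itga5* was at 0.821, 1.19, and 0.682 RPKM with DMSO and at 1.75, 2.20, and 1.64 RPKM with GSK343, without overlap (log2 fold change 0.89, SE 0.20, adjusted p = 0.0124; 0.0524 without Pb with DMSO replicate 3). It passed the level filter through 3 Pb columns with GSK343 and 1 with DMSO, so the filter favoured a rise. *Itgav* rose from 7.09 ± 0.186 to 9.40 ± 0.813 RPKM (log2 fold change 0.39, SE 0.072, adjusted p = 0.00466). *Itgb3*, its partner, was at 2.95, 2.26, and 3.20 RPKM with DMSO and at 4.23, 4.40, and 4.45 RPKM with GSK343, without overlap, and did not pass the test (log2 fold change 0.61, adjusted p = 0.105). It was called with the compared groups alone (adjusted p = 0.0325), with edgeR and the replicate block (0.0298), and with replicate 2 of every cultured group left out (0.00265). *Itgb2* rose from 77.0 to 85.2 RPKM (log2 fold change 0.15, adjusted p = 0.0365). That call was lost with edgeR (TMM, adjusted p = 0.094), after median scaling (0.0744), and when any library but Pb with DMSO replicate 2 was left out (0.0666 to 0.133).

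*Cd44* was at 68.9, 70.5, and 63.3 RPKM with DMSO and at 93.7, 90.1, and 95.6 RPKM with GSK343 (log2 fold change 0.46, SE 0.081, adjusted p = 0.00375). *Pecam1* was at 10.5, 10.7, and 9.23 RPKM with DMSO and at 6.28, 7.90, and 6.85 RPKM with GSK343 (log2 fold change -0.52, SE 0.11, adjusted p = 0.0116; 0.054 without Pb with GSK343 replicate 1). Neither receptor overlapped between the groups, and the ratio of *Cd44* to *Pecam1* was 6.66 ± 0.173 with DMSO and 13.4 ± 1.80 with GSK343. *Fermt3* fell from 61.9 to 53.4 RPKM (log2 fold change -0.21, adjusted p = 0.0433), a call that was lost with edgeR (TMM, adjusted p = 0.0502) and when any library but Pb with GSK343 replicate 2 was left out (0.0766 to 0.162).

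Markers of the B cell state also moved in this comparison: *Ms4a1*, *Pax5*, and *Fcer2a* (3 of 7 B cell markers) fell, their list summed to 927 to 947 RPKM with DMSO and 754 to 897 RPKM with GSK343, and *Sdc1*, which encodes the CD138 used for the sort, rose from 29.7 ± 0.826 to 55.3 ± 3.09 RPKM. The other plasmablast marker called was *Irf4*, which fell by 0.25 on the log2 scale. *Cd1d1* and *Cd5* rose and *Cr2* and *Zbtb32* fell among 7 marginal zone or B-1 cell markers, and *Ccr9* (1 of 6 dendritic cell markers) rose. Their part in the changes of the adhesion genes was not tested.

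*Itga5*, *Itgb1*, *Itgb2*, and *Itgb7* were called higher in both cell types. This was 4 of the 26 tested genes, where 465 of all 11299 tested genes (4.12%) were called higher in both. In each cell type, these were 4 of the 7 adhesion genes called higher. Over all tested genes, the 465 were among 926 called higher in actB and 893 called higher in Pb. The 4 genes include *Itga5*, which passed the level filter through 3 Pb columns with GSK343 and 1 with DMSO. The filter thus favoured its rise in Pb, and with it these counts. The calls of *Itgb1* in actB and of *Itgb2* in Pb were those lost with edgeR and when most libraries were left out. *Itga10*, *Itgam*, and *Itgax* were called in actB alone, and *Itga4*, *Itgav*, *Cd44*, *Pecam1*, and *Fermt3* in Pb alone. With the replicate block, *Pecam1* was called lower in actB as well, and it fell in each numbered pair there (38.1 to 29.2, 45.9 to 38.5, and 39.5 to 30.0 RPKM). The difference between the effects in Pb and in actB was called for 0 of the 26 genes by limma and by edgeR with TMM factors. The background was 0.0974% of all tested genes called with a higher and 0.15% with a lower effect in Pb, and 4 of the 26 genes had an unadjusted p under 0.05. *Itgam* had the largest difference (-0.84 on the log2 scale, 95% interval -1.44 to -0.25, adjusted p = 0.31), followed by *Itgb3* (0.77, interval 0.07 to 1.47, adjusted p = 0.487), *Itgae* (-0.41, adjusted p = 0.47), and *Cd44* (0.30, adjusted p = 0.433). Without actB with GSK343 replicate 2, the difference for *Itgam* was -1.11 (adjusted p = 0.0405). With replicate 2 left out of every cultured group, it was -0.98 (adjusted p = 0.0472), and that for *Itgb3* was 0.59 (adjusted p = 0.0313). For *Itgb7* the difference was 0.05 (95% interval -0.58 to 0.67).

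The genes called in neither cell type include *Itgal*, *Icam1*, *Icam2*, *Cd47*, *Selplg*, *Tln1*, *Cd9*, and *Cd151*. The log2 fold change of *Itgal* in Pb had a 95% interval from -0.18 to 0.17, and that of *Icam1* from -0.20 to 0.21, so that large changes of these genes in Pb are outside the intervals. *Vcam1* stayed at 0 reads with GSK343. Among the genes under the level filter, *Itga8*, which pairs with β1, was at 0.0498 ± 0.0168 RPKM (5 to 10 reads) in actB with DMSO and 0.247 ± 0.0189 RPKM (33 to 43 reads) with GSK343. It was called when the filter was dropped (adjusted p = 1.95e-04), whereas in Pb it had at most 2 reads in any library. *Itga1*, a collagen receptor chain, was at 0.225 ± 0.0122 RPKM in Pb with DMSO and 0.496 ± 0.0930 RPKM with GSK343 (adjusted p = 8.92e-04 without the filter).

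EZH2 acts mainly at promoters rich in the dinucleotide CG. Promoters of genes called with GSK343 are therefore shown for the 3 with the largest log2 fold change in actB on the scale of log2(RPKM + 0.25). That of *Itgb1* was added outside this rule. Its call in actB was lost under 6 of 14 settings and in 5 of 6 fits with a library left out. Each promoter is given as 250 bases that end at the base before the transcription start (RefSeq, GRCm38.p6, on the strand of the gene, 5′ to 3′). Capitals mark each CG. The windows are chr8:128685404-128685653 (+) for *Itgb1*, chr15:103366792-103367041 (-) for *Itga5*, chr7:128062390-128062639 (+) for *Itgam*, and chr15:102231936-102232185 (-) for *Itgb7*.
Itgb1: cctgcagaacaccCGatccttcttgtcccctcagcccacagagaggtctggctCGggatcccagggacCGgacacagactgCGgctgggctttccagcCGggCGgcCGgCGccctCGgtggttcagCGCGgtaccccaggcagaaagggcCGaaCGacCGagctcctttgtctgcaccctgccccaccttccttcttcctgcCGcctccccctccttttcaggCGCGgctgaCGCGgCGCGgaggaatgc
Itga5: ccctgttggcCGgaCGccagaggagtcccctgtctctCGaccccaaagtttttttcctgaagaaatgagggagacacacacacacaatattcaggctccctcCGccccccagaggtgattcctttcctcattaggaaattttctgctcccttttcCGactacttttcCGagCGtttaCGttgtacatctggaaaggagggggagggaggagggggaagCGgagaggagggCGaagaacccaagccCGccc
Itgam: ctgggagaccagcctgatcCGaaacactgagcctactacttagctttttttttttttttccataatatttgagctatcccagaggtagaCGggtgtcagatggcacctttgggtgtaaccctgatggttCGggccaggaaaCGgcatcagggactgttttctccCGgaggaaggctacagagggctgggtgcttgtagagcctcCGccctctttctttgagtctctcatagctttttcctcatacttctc
Itgb7: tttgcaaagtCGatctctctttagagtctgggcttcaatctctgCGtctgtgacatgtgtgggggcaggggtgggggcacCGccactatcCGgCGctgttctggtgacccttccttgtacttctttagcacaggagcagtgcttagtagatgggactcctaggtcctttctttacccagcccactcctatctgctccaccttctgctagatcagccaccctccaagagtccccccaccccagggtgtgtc
The windows differed widely: *Itgb1* held 21 CG, *Itga5* 11, *Itgam* 6, and *Itgb7* 5. At least as many CG were found in 16.3%, 35.6%, 50.4%, and 55.6% of all 32851 windows of this length, whose median was 6. Of the 37 genes, 25 matched a window, and the median over their 29 windows was 11. The letters GAGGAA, a core that Ets family factors such as PU.1 can bind, were searched on both strands and were in 10 of the 29 windows and in 23.3% of all windows. The letters ACTTTC, a core that Blimp-1 can bind, were in 4 of the 29 windows and in 12.3% of all windows. These counts are descriptions of the letters and not of binding.

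Several of these genes lie beside each other in the genome (mm9, GENCODE annotation). *Itgam* (chr7:135206154-135271674), *Itgax* (chr7:135273061-135294171), and *Itgad* (chr7:135297890-135349015) follow each other on the plus strand, with 1386 bases between *Itgam* and *Itgax* and 3718 bases between *Itgax* and *Itgad*. Of these neighbours, *Itgam* and *Itgax* rose with GSK343 in actB, and *Itgad* was at 0.0308 RPKM with DMSO and 0.0357 RPKM with GSK343. *Itgal* lies 727.5 kb upstream on the same strand. *Itgb7* (chr15:102046426-102062366) and *Itga5* (chr15:103174720-103197194), both on the minus strand, are 1112.4 kb apart with 37 coding genes between them. *Itga1*, which was under the filter, lies 26.0 kb from *Itga2*. Exons of *Itga4* share 1124 bases with *Cerkl* on the other strand, those of *Itgav* share 634 bases with Gm13684, and those of *Tln1* share 360 bases with *Creb3*. *Icam1*, *Itga8*, *Fermt3*, *Cd9*, *Cd151*, and *Itgad* also overlap an exon on the other strand. Since the use of strand in counting is not stated, reads of these genes and of their overlapping partners cannot be told apart.

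Lists of related genes were examined beside the receptors. Of 40 adaptors and inside-out signalling genes, which link Rap1, talin, and the cytoskeleton to integrins, 31 were tested. Of all tested genes, 40.9% were higher and 36.3% lower in actB with DMSO than in nB, 27.3% and 42.4% in Pb than in actB, and 39.5% and 41.1% in Pb than in nB, and the counts of the lists are to be read against these shares and, with GSK343, against 8.2% and 2.16% in actB and 7.9% and 5.0% in Pb. With GSK343, 5 rose and 1 fell in actB, with the largest rises in *Actn1* (α-actinin; 0.263 to 0.795 RPKM, log2 fold change 1.03) and *Skap2* (0.61) and a fall of *Rapgef1* (-0.27). In Pb, 5 rose, led by *Actn1* (0.548 to 1.13 RPKM, log2 fold change 0.81) and *Zyx* (zyxin, 0.38), and 5 fell, led by *Sipa1* (-0.25) and *Apbb1ip* (-0.24). The medians over the list were -0.019 in actB and -0.022 in Pb. Between the stages, 5 genes of the list were higher and 22 lower in actB with DMSO than in nB, led by *Rap1a* (0.66), *Ptk2* (0.46), *Fyb* (-5.51), and *Actn1* (-3.59). *Fyb* passed the level filter through nB alone (14.4 RPKM), so that its fall was set by the filter. The counts of all lists between stages include genes that passed through 1 stage alone. In Pb, 8 were higher and 18 lower than in actB, and *Rasgrp2*, which activates Rap1 in leukocytes, fell from 28.2 to 4.27 RPKM, whereas *Rap1gap*, which inactivates Rap1, rose from 3.07 to 13.2 RPKM. Against nB, 4 were higher and 22 lower in Pb.

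Of 20 other tetraspanins, 17 were tested, and with GSK343 4 rose and 0 fell in actB, and 4 rose and 1 fell in Pb (8.2% and 2.16% of all tested genes in actB, 7.9% and 5.0% in Pb). *Tspan6* rose in both (log2 fold change 0.77 in actB and 1.19 in Pb), *Tspan3* rose by 0.35 in actB, *Cd63* rose from 0.619 to 1.48 RPKM in Pb, and *Tspan15* fell from 6.54 to 3.27 RPKM in Pb. From nB to actB, 4 of the 17 rose and 11 fell (40.9% and 36.3% of all tested genes), from actB to Pb 7 rose and 7 fell (27.3% and 42.4%), and from nB to Pb 7 rose and 10 fell (39.5% and 41.1%). *Cd37*, a tetraspanin of mature B cells, was at 271 RPKM in nB, 102 RPKM in actB, and 21.3 RPKM in Pb with DMSO.

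Of 23 ligands and partners of the receptors, 12 were tested. In actB, 3 rose with GSK343, led by *Sirpa*, which encodes the receptor of CD47 (0.759 to 2.34 RPKM, log2 fold change 1.35), and *Lgals3* (galectin-3, 0.79), and *Lgals9* (galectin-9) fell by 0.44. In Pb, 3 rose, led by *Spp1* (osteopontin, a ligand of αV and α4 integrins; 3.98 to 11.4 RPKM, log2 fold change 1.46) and *Thbs1* (thrombospondin-1, a ligand of CD47; 1.44), and *Lgals9* fell by 0.37. *Thbs1* was at 0.0533 RPKM in actB with DMSO, 0.0837 RPKM in actB with GSK343, 0.0464 RPKM in Pb with DMSO, and 0.563 RPKM in Pb with GSK343, and its effect was larger in Pb by 1.30 (limma adjusted p = 0.0347). Drug and cytokine cannot be told apart in this difference if the IL6 label of Pb with GSK343 holds. From nB to actB, 5 of the 12 rose and 6 fell (40.9% and 36.3% of all tested genes), from actB to Pb 5 rose and 4 fell (27.3% and 42.4%), and from nB to Pb 5 rose and 6 fell (39.5% and 41.1%). These counts include genes such as *Thbs1*, which passed the level filter through nB alone.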

How the data were processed

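RNA-seq libraries of nB, actB, and Pb were made with a stranded poly(A) kit. The authors mapped paired-end reads to mm9 with TopHat2 and counted reads over exons of each Entrez gene with GenomicRanges. The table they deposited is named for RPKM but holds RPM: every column sums to 1000000, and 100% of the values were whole reads (within 0.05 reads and rounding). Reads were recovered from these values, and RPKM was computed from RPM and the deposited gene length. The 92 genes with no symbol (up to 0.0905% of reads) were left out.

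The nB replicates 1 and 2 were merged (chi-square per degree of freedom 0.00958 over 14442 genes, against at least 3.58 for every other pair of a group). The 11299 genes with at least 1 RPKM in at least 3 of the 15 columns were fitted in 14 libraries with limma 3.58.1 (R 4.3.3; contrasts of group means, eBayes with its trend option). Values entered as log2(RPKM + 0.25), a scale that understates the change of low genes. P-values are two-sided, with Benjamini-Hochberg adjustment over all genes tested, and genes were called at an adjusted p under 0.05. With 3 libraries in each group, the smallest p of an exact permutation test is 0.1, so none was used. The fits were tested on simulated data with known changes.

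Replicate numbers in the labels may pair the samples. Deviations from group means were positively correlated within each number across cultured groups (r of 0.158 to 0.502, 0.435 to 0.713, and 0.219 to 0.356 for numbers 1, 2, and 3, over 6 pairs each). Over 36 pairs of different numbers, r was -0.603 to 0.370, which overlapped the ranges of numbers 1 and 3, so that pairing was not settled. The 12 cultured libraries were therefore also fitted with the number as a block. Further alternatives were pseudocounts of 1 and 0.05, no filter, a minimum of 3 RPKM, median scaling, quantile normalization, edgeR 4.0.16 on the recovered reads (quasi-likelihood, TMM or RLE factors), the compared groups alone, all columns as deposited, and each library left out in turn. Chosen after seeing the data were the counts between stages over genes that reached 1 RPKM in more than 1 stage, edgeR with the filter of the study (3 RPM in at least 3 columns), edgeR with the block, and leaving out replicate 2 of all cultured groups.

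The 37 genes and all lists were chosen with earlier results of these data known. Genes named with a test are those called, at most 10 in each direction between stages and all with GSK343; from each list, at most 2 in each direction are named, except *Cd37* and markers, which were added after their values were seen. Markers of platelets, erythroid cells, endothelial cells, dendritic cells, and marginal zone B cells summed to 6.85 to 7.30, 30.8 to 139, 1.20 to 1.30, 30.7 to 37.5, and 265 to 273 RPKM in nB, and activated B cell markers to 116 to 131 RPKM in nB and 298 to 463 RPKM in the cultured groups. Coordinates are 1-based.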

Additional observations from a re-analysis of the deposited data

Results flagged for a closer look

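*Thbs1* was flagged because the effect of GSK343 differed between the cell types: the log2 fold change was larger in Pb than in actB by 1.30 (limma adjusted p = 0.0347), with 0.0464 against 0.563 RPKM in Pb and 0.0533 against 0.0837 RPKM in actB (DMSO against GSK343, n = 3 each). If the IL6 label of Pb with GSK343 holds, drug and cytokine cannot be told apart in this difference.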

How the results depend on the processing

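No called value of a named gene changed sign under any alternative run, 1180 values of called genes kept their direction and side of the threshold, and 86 lost their call. In actB, GSK343 changed 7 of the 26 tested genes, against 2 with the compared groups alone, 11 with the replicate block, 11 with edgeR and the replicate block, 11 with replicate 2 of every cultured group left out, and 4 to 8 when each library was left out in turn, with 4 without actB with DMSO replicate 1. The compared groups alone left fewer libraries to estimate the spread, and *Itgam* (adjusted p = 0.0746) and *Itga5* (0.0524) were among the calls lost; the cause of the other differences was not tested. The difference of the effect between Pb and actB was called for 0 genes, against 1 with no filter (*Itga8*, adjusted p = 0.0144), 2 with replicate 2 of every cultured group left out, and 0 to 1 with each library left out. In Pb, 9 genes were called, and 6 to 9 with each library left out, and *Itgb7* was not called with the compared groups alone (adjusted p = 0.0536). With each library left out, 17 to 20, 21 to 21, and 19 to 20 of all 26 tested genes were called for actB against nB, Pb against actB, and Pb against nB. In limma, the replicate block changed no calls other than those given in the text, and with edgeR it also added *Icam1* in actB (adjusted p = 0.0134), *Itgb3* in Pb (0.0298), and *Tln1* in Pb against actB (0.0209). No fit with the block was possible for nB, since its merged column carries 2 numbers. Leaving out an nB library left nB with 1 sample, which was assumed to vary like the other groups. Reads limit the genes at 0, where a fold is a bound for counting error only.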
